A study of Rattus norvegicus with 36 samples.

Results

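Cluster 4 is a set of 1380 genomic regions, mostly of low DNA methylation in rat spermatids, that the authors deposited as 1 cluster of their spermatid lists. It makes up 1380 of the 9449 distinct regions in the 4 deposited spermatid lists, and of the 60036 distinct regions in all 7 lists. How the clusters were formed is not described in these sources, and the members are taken here as chosen on the spermatid levels, so those levels and their differences are a description and carry no test. The other clusters used for comparison are cluster 3 with 2302 regions, cluster 7 with 1118 and cluster 8 with 1701. A further 2948 spermatid-list regions stood in none of these 4 clusters.

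The study followed male germ cells of untreated transgenic Sprague-Dawley rats (genotype GFP-GCS), in which a green fluorescent protein marks germ cells for sorting. DNA methylation was measured by capture of selected genomic regions followed by bisulfite sequencing. The 9 stages had 4 samples each. They were gonocytes at GD16, GD18 and GD20 (gestational days 16, 18 and 20), spermatogonia at PND5 (postnatal day 5), spermatids labelled R1-8, R9-12, R13-14 and R15-17, and spermatozoa, whose DNA came from a different extraction kit from that of the sorted cells. Rats of all stages carried the same transgene and strain, and ages of the adult donors are not given in the labels. The files hold 1 mean level per stage and region as the authors computed it, with no value per sample and no read depth, so no spread between samples can be given. They hold no expression values, so the labelled cell types could not be checked against marker transcripts.

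Methylation of cytosine at CpG sites is laid down in male germ cells before and around birth by the de novo methyltransferases, after earlier marks have been erased in primordial germ cells. Spermatids no longer divide. During spermiogenesis they replace most histones with transition proteins and then protamines, condense the nucleus and build the acrosome and tail.

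Of the 1380 regions 472 were annotated to a gene in the deposited sheet, 53 of them to a promoter. RefSeq promoter windows (GRCr8, 250 bases before to 50 bases after the gene start) were found for 40 promoter genes of the cluster. The windows of 6 named genes with the largest promoter differences, and of the de novo methyltransferase gene Dnmt3a, are printed here because the results return to them, with every CpG in capitals. The deposited coordinates are of another build than GRCr8, so where in or beside these windows the measured regions lie was not placed. Mfhas1, which had the largest promoter difference, is named only.
Robo1, chr11:24067706-24068005 (+): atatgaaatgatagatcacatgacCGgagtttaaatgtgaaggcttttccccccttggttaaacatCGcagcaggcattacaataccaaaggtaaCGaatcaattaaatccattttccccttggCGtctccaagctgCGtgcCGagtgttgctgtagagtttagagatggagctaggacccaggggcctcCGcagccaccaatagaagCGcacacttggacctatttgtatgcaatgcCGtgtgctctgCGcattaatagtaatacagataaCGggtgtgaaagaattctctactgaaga
Taf5l1, chr19:68908048-68908347 (-): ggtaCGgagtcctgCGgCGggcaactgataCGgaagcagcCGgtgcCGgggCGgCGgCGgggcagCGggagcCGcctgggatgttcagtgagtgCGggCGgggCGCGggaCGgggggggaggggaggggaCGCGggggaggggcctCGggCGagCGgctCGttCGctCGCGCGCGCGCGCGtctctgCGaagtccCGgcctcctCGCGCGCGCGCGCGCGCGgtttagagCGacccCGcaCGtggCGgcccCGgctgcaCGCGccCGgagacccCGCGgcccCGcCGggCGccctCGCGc
Asic3, chr4:11657318-11657617 (-): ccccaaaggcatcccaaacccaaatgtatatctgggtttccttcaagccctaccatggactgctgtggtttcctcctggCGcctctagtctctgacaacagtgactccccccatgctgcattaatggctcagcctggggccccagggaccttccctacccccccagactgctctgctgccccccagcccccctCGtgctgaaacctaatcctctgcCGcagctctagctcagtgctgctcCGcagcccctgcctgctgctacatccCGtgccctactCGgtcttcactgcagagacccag
Ghrh, chr3:166431831-166432130 (-): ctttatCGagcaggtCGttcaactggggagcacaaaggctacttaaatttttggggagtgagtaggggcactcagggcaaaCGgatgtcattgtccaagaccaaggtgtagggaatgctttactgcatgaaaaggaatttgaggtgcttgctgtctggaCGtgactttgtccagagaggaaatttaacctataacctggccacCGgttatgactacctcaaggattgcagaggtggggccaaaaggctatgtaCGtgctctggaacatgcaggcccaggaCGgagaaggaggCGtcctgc
Trim28, chr1:82724645-82724944 (+): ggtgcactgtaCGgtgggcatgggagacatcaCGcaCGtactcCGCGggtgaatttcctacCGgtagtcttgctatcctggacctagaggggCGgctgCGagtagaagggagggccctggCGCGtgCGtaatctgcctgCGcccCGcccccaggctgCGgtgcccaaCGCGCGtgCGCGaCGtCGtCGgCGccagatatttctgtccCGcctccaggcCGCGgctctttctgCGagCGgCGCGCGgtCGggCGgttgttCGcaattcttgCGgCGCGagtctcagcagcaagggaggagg
Tmem140, chr4:64503371-64503670 (+): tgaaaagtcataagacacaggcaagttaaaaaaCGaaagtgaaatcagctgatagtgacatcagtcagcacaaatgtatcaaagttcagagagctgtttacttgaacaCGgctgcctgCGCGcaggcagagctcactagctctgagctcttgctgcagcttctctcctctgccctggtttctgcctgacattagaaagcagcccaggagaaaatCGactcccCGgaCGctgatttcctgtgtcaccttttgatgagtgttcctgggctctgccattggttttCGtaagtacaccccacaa
Dnmt3a, chr6:32598352-32598651 (+): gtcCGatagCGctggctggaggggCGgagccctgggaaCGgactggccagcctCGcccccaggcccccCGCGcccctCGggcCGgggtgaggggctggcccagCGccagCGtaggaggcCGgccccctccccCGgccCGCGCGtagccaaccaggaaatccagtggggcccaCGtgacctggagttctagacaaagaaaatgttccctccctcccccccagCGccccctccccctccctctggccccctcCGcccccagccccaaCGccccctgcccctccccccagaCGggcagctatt

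Over the 40 windows the median was 11 CpGs in 300 bases, against 7 over all 27457 RefSeq windows, and the median GC content was 59% against 52.3%. The windows differ widely among themselves. The Taf5l1 window has 56 CpGs and a GC content of 80.7%, the Trim28 window 37 CpGs and the Dnmt3a window 21, whereas the Robo1 window has 11, the windows of Ghrh and Tmem140 have 8 each and the Asic3 window has 6. The GC box GGGCGG on either strand was in 18 of 40 windows (45%), against 34.9% of all windows, and the CCAAT box in 13 of 40 (32.5%), against 37.7%. The cyclic AMP response element TGACGTCA was in 0 of 40 windows, against 1.91% of all, which says only that these letters are not in these windows. Listed regions came from a capture panel and held at least 5 CpGs, whereas all RefSeq windows were taken without these limits. The part of this selection in the differences from all windows, in CpGs, GC content and boxes, was not tested. Windows of promoter genes of the other clusters were not compared.

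Among members with a listed level, the cluster 4 median was low in R1-8 spermatids and higher in R9-12 spermatids. It was low again in R13-14 spermatids and higher again in spermatozoa. Over the members with a listed level at a stage, the median level was 12.5% at R1-8 (634 regions), 24.8% at R9-12 (1089), 11.5% at R13-14 (1013), 12.6% at R15-17 (552) and 22.2% in spermatozoa (328). A level is known for a region and stage only where a list holds that region, so the 5 medians rest on different regions. They describe members listed as changing at a step that includes the stage, and the spermatozoa median rests on 328 of the 1380 members. Quartiles at R9-12 were 21.5% and 28.7%, and the highest member reached 63.1%. Cluster 3 moved in the same order of stages at lower levels, with medians of 4.9%, 16.7%, 3.5%, 3.8% and 14% from R1-8 to spermatozoa, and its quartiles at R9-12 were 14.2% and 20%. Clusters 7 and 8 held mostly high levels, with medians of 84.6% and 97.1% at R9-12.

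**Figure D1:**
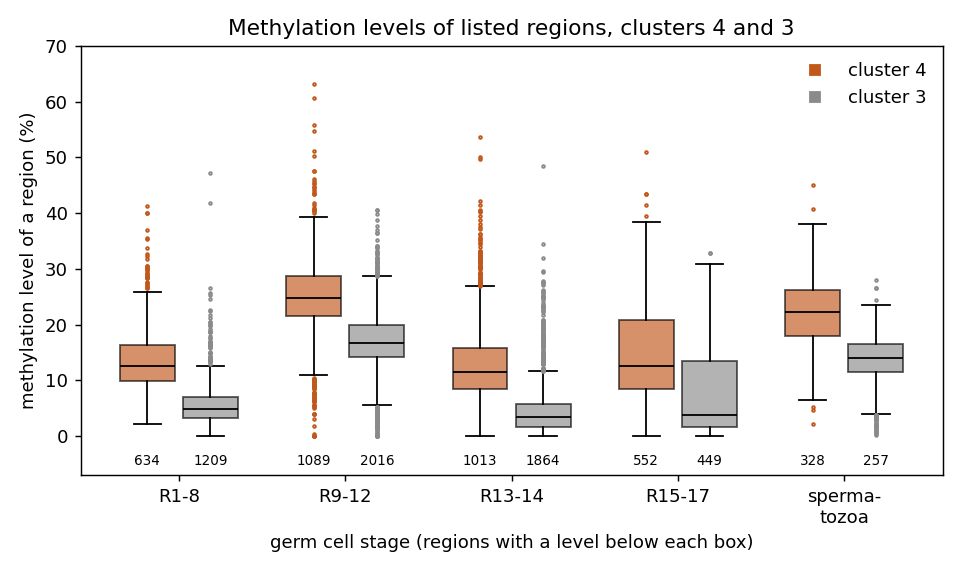
Methylation level (%) of cluster 4 regions (left box of each pair) and cluster 3 regions (right box) at the 5 stages. Boxes span the quartiles with the median as a line, whiskers reach the last region within 1.5 box lengths, dots are regions beyond, and the number of regions with a listed level stands below each box; the cluster 4 medians are 12.5%, 24.8%, 11.5%, 12.6% and 22.2%.

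A change at one or both of the first 2 steps was listed for 1089 of the 1380 members. From R1-8 to R9-12, 570 members rose (41.3% of the cluster), against 26.3% of all 9449 spermatid-list regions, and 64 fell (4.64%, against 13.1%). From R9-12 to R13-14, 57 members rose (4.13%, against 11.7%) and 756 fell (54.8%, against 47.7%). From R13-14 to R15-17 the directions were even, with 163 members higher (11.8%, against 23.3%) and 162 lower (11.7%, against 8.66%). From R15-17 to spermatozoa 262 rose (19%, against 11.1%) and 66 fell (4.78%, against 6.82%). These shares follow from the grouping and from what the authors listed, so nothing is read from their size. A region counts as risen or fallen where the authors listed it. The members' listed differences were at least 10 percentage points, and the highest adjusted p of a member in the authors' deposited tables was 0.0497, 0.0497, 0.05 and 0.0486 at the 4 steps in order.

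**Figure D2:**
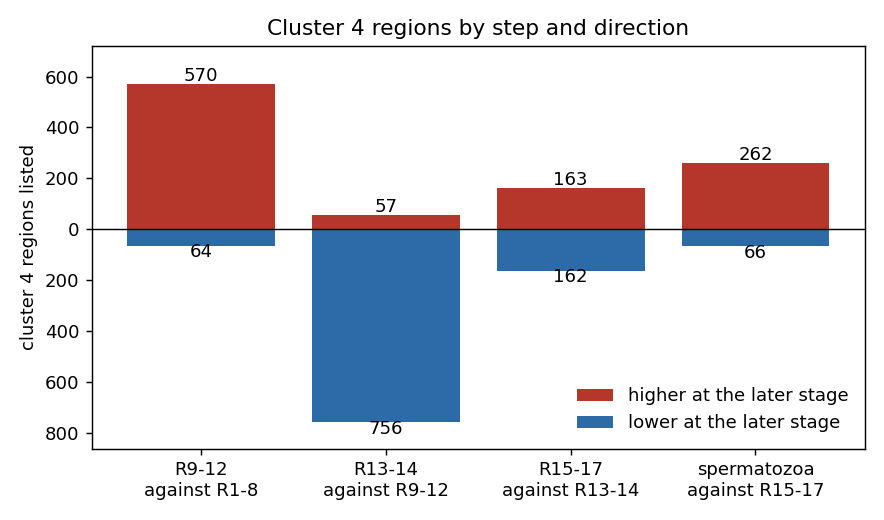
Number of cluster 4 regions listed as higher (above zero) or lower (below zero) at the later stage of each step. The counts are 570 and 64, then 57 and 756, then 163 and 162, then 262 and 66.

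The typical change was modest. Among members that rose, the median difference was 14 points at R9-12 against R1-8, 15.9 at R13-14 against R9-12, 14.5 at R15-17 against R13-14 and 13.2 in spermatozoa against R15-17. Changes of 20 points or more were made by 95 of the 570 rises at R9-12 and by 144 of the 756 falls at R13-14. Changes of 30 points or more numbered 18 and 27 at the same steps. Large changes were found in regions with few CpGs. The largest listed difference of a member had a median of 17.7 points over the 246 regions with 5 CpGs and 12.2 points over the 66 regions with 20 or more, and 20 of the 246 reached 30 points against 0 of the 66. Across the 1380 regions Spearman's rank correlation between this difference and the number of CpGs was -0.3, and with region length -0.26. The regions share stages and libraries, the authors' listing required both a minimum size and a p-value, and the part of CpG number in the size of a change was not tested.

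The member with the largest annotated change lay in Spag16, which encodes a protein of the central apparatus of the sperm tail. Its region in intron 3 of 8 (chr9:77360437-77360649, 8 CpGs in 213 bp) had a level of 2.4% at R1-8, 54.7% at R9-12 and 8.6% at R13-14. Robo1, a receptor for Slit guidance cues, had a region in intron 3 (chr11:9800211-9800308, 6 CpGs) at 2.2%, 39% and 9.9% over the same stages. Dse, an epimerase of dermatan sulfate synthesis, was at 5.3%, 39.3% and 6.4% in its last exon. Caln1, a neuronal calcium-binding protein, was at 12%, 45.3% and 9.8% in intron 1. Lrrc63, a leucine-rich repeat gene, was at 6.7%, 40% and 6.9% in exon 3. All 5 regions were highest at R9-12 of the 3 stages, which follows from their choice by the largest rises to R9-12 or falls after it. At R13-14 each was within 8 points of its own R1-8 level. Akap17a, also among the largest falls at R13-14, was not, with 15.8%, 39.2% and 5.4% in exon 2. Prss36, a serine protease, stood at 38.8% at R9-12 against 4.3% at R1-8 in intron 3 and had no listed change afterwards.

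This rise and fall was the course of 344 members that were listed at both steps. Their median level was 12.5% at R1-8, 28.4% at R9-12 and 11.2% at R13-14. The lists of neighbouring steps share the R9-12 samples, so the 2 differences of a region are not independent measurements. The R1-8 and R13-14 samples are different ones, but the members are taken as chosen on these levels. The 344 were also kept because their levels at R1-8 and at R13-14 were each at least 10 points under that at R9-12. Closeness of the R1-8 and R13-14 levels therefore follows largely from the choice, and nothing is read from it. Over the 403 members with a level at R1-8, R9-12 and R13-14, whatever the direction, the R13-14 level minus the R1-8 level had a median of -1.1 points with quartiles of -3.7 and 2.2, and 352 of the 403 (87.3%) lay within 10 points. A level at R13-14 can come from the list of either step that includes this stage, so some of the 403 were not listed at both of the first 2 steps, and members without these 3 levels could not enter.

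The 64 falls at R9-12 were in the opposite direction to the 570 rises at this step. Chrm5, a muscarinic acetylcholine receptor, had a region in intron 1 (chr3:103980653-103980683, 6 CpGs in 31 bp) at 35.4% at R1-8, 3.9% at R9-12, 10.5% at R13-14 and 32.2% at R15-17. Mapre2, a protein of growing microtubule ends, was at 31.7%, 11%, 25.4%, 6.1% and 30.8% over the 5 stages in intron 3, so that it was low where Spag16 was high. Pde1c, a calmodulin-dependent phosphodiesterase, was at 5.3% at R9-12 against 25.7% at R1-8 in intron 3. The promoter region of the platelet chemokine gene Ppbp fell at both steps, with 41.3% at R1-8, 23.6% at R9-12 and 8.7% at R13-14.

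Among the 57 rises at R13-14, the largest annotated ones were followed by a listed fall at R15-17, except that of Rps12l4. They were picked for a high R13-14 level, and both steps share the R13-14 samples, so the fall follows in part from the choice. Of all 57, 18 had no other listed change, and 19 had a fall at R15-17 as their only other one. Slc22a3, an organic cation transporter, was at 3% at R9-12, 32.8% at R13-14 and 10.7% at R15-17 in intron 1 (chr1:48433838-48434261, 11 CpGs). Tulp2, a tubby-like gene, was at 14.9%, 38.7% and 16.8%, and Mylip, a ubiquitin ligase of the LDL receptor pathway, at 12.2%, 35.4% and 14.5%, both in intron 1. Plekha5 was at 9.2%, 33.9% and 9.8% in intron 3. Rps12l4 had 37.6% at R13-14 against 11.3% at R9-12 at its transcription end, with no listed change afterwards.

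At R15-17 the cluster held members that were high at this stage and others that were low. Ttc23, a tetratricopeptide repeat gene, had a region in intron 1 (chr1:128614636-128614737, 6 CpGs) at 14.1%, 0%, 1%, 50.9% and 13.7% over the 5 stages. Nostrin, an adaptor of endothelial nitric oxide synthase, was at 19.7%, 7%, 0.9%, 35.6% and 16.2%. Mgat5b, a glycosyltransferase, was at 15.6% at R13-14, 43.5% at R15-17 and 19.1% in spermatozoa over 18 CpGs, the most of any region named for this step. Inava was at 31% at R9-12, 2% at R13-14 and 27.3% at R15-17. Falls at this step included the promoter region of Trim28, the corepressor of KRAB zinc finger proteins, at 13.5% at R15-17 against 39.5% at R13-14 (chr1:65550974-65550996, 5 CpGs in 23 bp). Foxa3, a forkhead transcription factor, was at 11.7%, 31.4%, 6.5% and 19% from R9-12 to spermatozoa in exon 2, and the urea transporter gene Slc14a1 at 21.1%, 9.3%, 27.7% and 2.5% from R1-8 to R15-17. Ucp2, a mitochondrial carrier, was at 32.2%, 7.7% and 30.1% from R13-14 to spermatozoa in exon 4.

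In spermatozoa, 114 members were listed as a rise at this last step and in no other spermatid list, with a median of 23.8% against 10.2% at R15-17. Nrp2, a co-receptor for semaphorins and VEGF, showed the largest rise of an annotated region, at 45% in spermatozoa against 0% at R15-17 in intron 1 (chr9:69498866-69498939, 7 CpGs in 74 bp), and had been at 15.6% at R1-8 and 1.8% at R9-12. The promoter region of Robo1 (chr11:9208880-9208976) was at 23.9%, 11.2% and 40.8% from R13-14 to spermatozoa. Adamts9, a secreted metalloprotease, was at 30.6% in spermatozoa against 5.2% at R15-17 in exon 37. Trpm4, a calcium-activated cation channel, was at 26.5%, 13.7%, 14.4%, 2.3% and 25.9% over the 5 stages in intron 21. Falls at this step included Cpne8, a copine, at 15.5% against 35% and C3h9orf50 at 11.1% against 30.6%. Sperm DNA was extracted with its own kit, so extraction and stage cannot be told apart at this step.

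Members differed in how often they changed. Of the 1380, 763 (55.3%) were in 1 spermatid list, 522 (37.8%) in 2, 87 in 3 and 8 in all 4. The most frequent courses were a fall at R13-14 alone (310 members), a rise at R9-12 with a fall at R13-14 (289), a rise at R9-12 alone (170) and a rise in spermatozoa alone (114). Numbers of lists and courses were not counted over all 9449 spermatid-list regions, so nothing particular to the cluster is read from these counts. By single step, 26.3% of all these regions rose at R9-12, 47.7% fell at R13-14 and 11.1% rose in spermatozoa. A fall at R13-14 with a rise at R15-17 occurred in 91 members, whatever else changed, with medians of 22.9% at R9-12, 6.9% at R13-14 and 22% at R15-17. A fall at R15-17 with a rise in spermatozoa occurred in 64, with medians of 24.6%, 6.8% and 22% from R13-14 on. Both groups were kept because a fall and then a rise were listed, and the paired steps share the samples of the middle stage. The dip in their medians follows from this choice, and nothing is read from it. Among the 472 annotated members 31 were in 3 or more lists. Msantd3 was in all 4, at 14.2%, 32.7%, 6.4%, 26% and 13.3% in exon 2 over 15 CpGs. The 58 members with a level at all 5 stages had medians of 14.2%, 27.4%, 10.9%, 11.1% and 22.6%. A member has all 5 levels only if it was listed at the first step, the last step and a middle step. The course of these 58 therefore follows largely from this choice and from the grouping, and nothing is read from it.

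**Figure D3:**
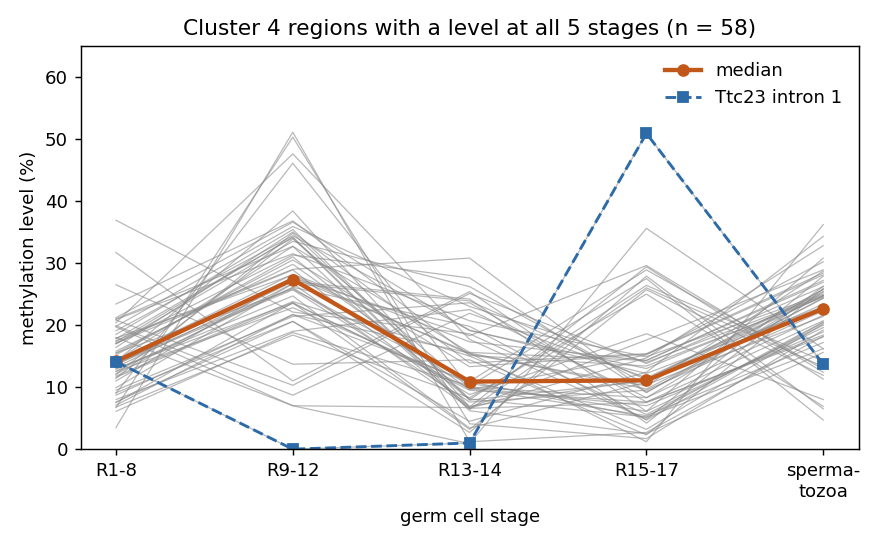
Methylation level (%) of the 58 cluster 4 regions with a listed level at all 5 stages, in order of stage. Thin lines are regions, the thick line is their median (14.2%, 27.4%, 10.9%, 11.1% and 22.6%), and the dashed line is the Ttc23 intron 1 region, which stood at 50.9% at R15-17. The regions were listed as changing at the first step, the last step and a middle step, so their course follows largely from the choice.

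Of the 53 promoter regions, 23 rose and 6 fell at R9-12, 1 rose and 24 fell at R13-14, 6 rose and 7 fell at R15-17, and 8 rose and 4 fell in spermatozoa. Rises and falls of all 472 annotated regions were 193 and 27, 24 and 263, 61 and 55, and 81 and 20 at the same steps. Nothing particular to promoters is read from these counts. Mfhas1 had the largest promoter difference, at 17.1%, 45.8% and 11.7% from R1-8 to R13-14 (chr16:60208752-60208786, 9 CpGs in 35 bp). The promoter region of Taf5l1 (chr19:56800713-56800769, 11 CpGs in 57 bp) was at 0% at R13-14 against 29.4% at R9-12. That of Asic3, an acid-sensing ion channel (chr4:7293094-7293559), was at 1.5% against 29.8%. The promoter region of Ghrh, the growth hormone-releasing hormone gene (chr3:153468773-153468842), was at 4.3%, 30.4%, 6.9% and 17.5% from R1-8 to R15-17. Tmem140 (chr4:62380230-62380523) was at 14%, 35.4% and 22.7% from R13-14 to spermatozoa. Of these promoters Taf5l1 and Trim28 have the most CpGs in their RefSeq windows and Asic3 has the fewest, and both kinds were listed.

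The 472 annotated members are 34.2% of the cluster (95% Wilson interval 31.7% to 36.7%), against 35.5% of cluster 3 (33.6% to 37.5%), 47.9% of cluster 7 (44.9% to 50.8%) and 51.5% of cluster 8 (49.1% to 53.9%). The intervals of clusters 4 and 3 overlapped and those of clusters 7 and 8 lay above them. Of the annotated members 262 lay in introns (55.5%, 51% to 59.9%), 117 in exons (24.8%, 21.1% to 28.9%) and 53 in promoters (11.2%, 8.69% to 14.4%). Another 23 lay at transcription ends, 14 in 3' UTRs and 3 in 5' UTRs. The intron share was 48.9% in cluster 3, 76.8% in cluster 7 and 75.7% in cluster 8, and the exon share 29.1%, 8.79% and 13.8% in the same order. The intervals take every region as an independent count and say nothing of the spread between samples. No test was run.

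**Figure D4:**
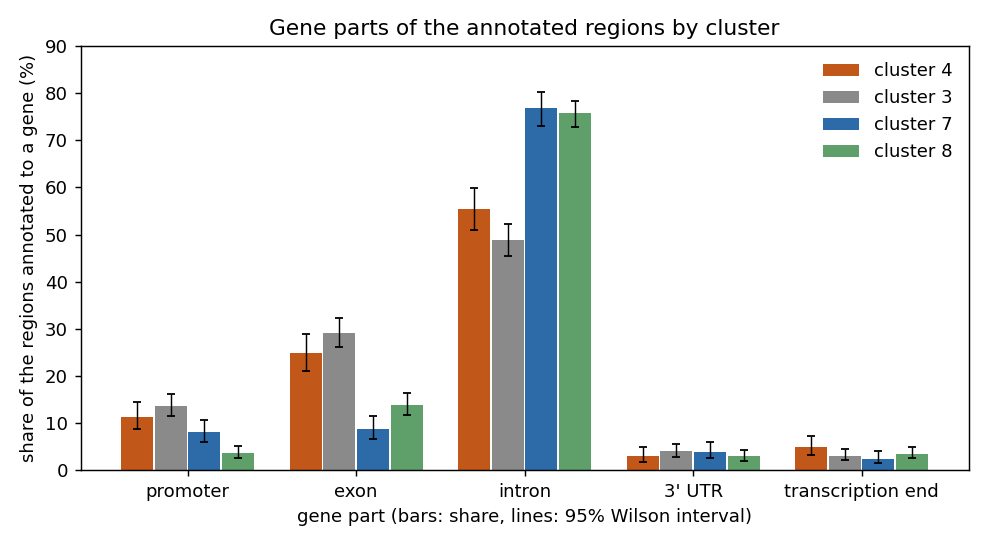
Share (%) of the regions annotated to a gene that lie in each gene part, for clusters 4, 3, 7 and 8, with 95% Wilson intervals. Introns hold 55.5% of the annotated cluster 4 regions, against 76.8% in cluster 7 and 75.7% in cluster 8, and exons hold 24.8%, against 8.79% and 13.8%.

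Member regions were short. Their median length was 266 bp with a median of 8 CpGs, and the extremes were 22 and 1555 bp. Median density was 3.3 CpGs per 100 bp, against 3.68 in cluster 3, 2.21 in cluster 7, 2.37 in cluster 8 and 3.11 in the spermatid regions outside the clusters. Thus density in cluster 4 lay between that of cluster 3 and those of the other sets. On the X chromosome lay 34 members (2.46%, interval 1.77% to 3.42%), against 3.65% of cluster 3 (2.96% to 4.5%), 0.894% of cluster 7 (0.487% to 1.64%) and 0.647% of cluster 8 (0.361% to 1.15%). Another cluster 4 region was found within 1000 bp of 14 members (1.01%) and a cluster 3 region within 1000 bp of 51 (3.7%), whereas another region of the same cluster was that near for 11.6% of cluster 3, 0.179% of cluster 7 and 0.47% of cluster 8 regions.

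Outside annotated genes lay 908 members, among them the largest change of the cluster. The following were picked out after their values were seen. The region chr5:88200194-88200317 (7 CpGs) was at 9.6% at R1-8, 63.1% at R9-12 and 4.1% at R13-14, and chr3:169679811-169679966 (7 CpGs) at 20.3%, 60.7% and 3.2%. The region chr1:78355844-78355994 (9 CpGs) was high at a later stage, with 5.6% at R9-12, 49.7% at R13-14 and 0.5% at R15-17. The region chr3:120930220-120930394 (10 CpGs) was at 6.2%, 41.5% and 13.8% from R13-14 to spermatozoa. Among the spermatid stages and spermatozoa with a level, the first pair were highest at R9-12, the third at R13-14 and the last at R15-17. The region on chromosome 3 with the R9-12 peak was also at 44.4% at PND5, against 5% at GD20.

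Earlier in germ cell life few members were listed as changing, in lists separate from the spermatid ones. At identical coordinates, 17 members fell from GD16 to GD18 (1.23%, interval 0.771% to 1.96%), against 0.931% of all spermatid-list regions. Rises from GD18 to GD20 were listed for 9 members (0.652%, 0.343% to 1.23%), against 24% of all spermatid-list regions, and rises from GD20 to PND5 for 43 (3.12%, 2.32% to 4.17%), against 40.9%. The 3 counts in cluster 3 were 40, 11 and 21 of 2302, whereas cluster 7 had 796 and 969 rises of 1118 and cluster 8 had 1268 and 1436 of 1701. Fetal and neonatal lists held only differences of 30 points or more, so a smaller rise in a member would not be listed. Whether an unlisted member was low or already high at PND5 is not shown by these lists.

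The 43 members that rose by PND5 had a median level of 49.4% at PND5, against 8.8% at GD20. In 38 of the 43 the PND5 level was above every later level listed for the region, and the median gap to its highest later level was 23.4 points. PND5 spermatogonia were not set against spermatids in any list used here, so this is a comparison of the authors' means with no test. The GD20 to PND5 list held only rises of 30 points or more, and the lowest PND5 level here was 32.3%. Members are taken as chosen on mostly low spermatid levels. A PND5 level above the later ones therefore follows largely from these choices, and nothing is read from it. Of the 43, 10 reached 80% or more, and their highest later levels were between 16.1% and 34.2%. Slc6a11, a GABA transporter, was at 32.7% at GD20, 97.2% at PND5, 22% at R9-12, 10.7% at R13-14 and 24% at R15-17 in intron 4 (chr4:146119630-146119863, 9 CpGs). Magi1, a scaffold of cell junctions, was at 2.8% at GD18, 55.6% at GD20, 96.2% at PND5, 21.2% at R9-12 and 9.8% at R13-14 in intron 13. Ddo, which oxidises D-aspartate, was at 27.2%, 94.6%, 16.1%, 5.5% and 15.6% at GD20, PND5, R9-12, R13-14 and R15-17. The 3' UTR region of Flt1, a VEGF receptor, was at 2.8%, 51.4%, 92.4%, 19.5% and 9.2% at GD18, GD20, PND5, R13-14 and R15-17. The promoter region of Tmem140 was at 61.7% at PND5, against 8.3% at GD20. Exceptions were 5 members whose later peak was at least as high as at PND5, among them Ttc23, with 50.9% at R15-17, against 39.2% at PND5.

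**Figure D5:**
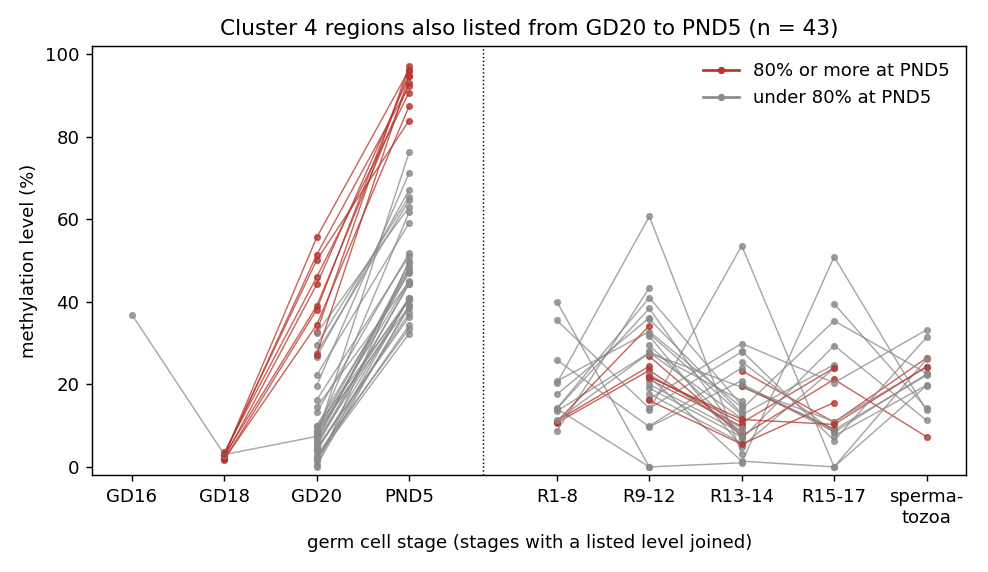
Methylation level (%) of the 43 cluster 4 regions listed as rising from GD20 to PND5, by stage. Points are listed levels, joined within the fetal and neonatal stages and within the later stages; the dotted line marks the gap that no list bridges, and the 10 regions at 80% or more at PND5 (red) had later levels of at most 34.2%.

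The 17 members that fell by GD18 had a median level of 1.4% at GD18, against 36% at GD16. Annotated ones were the Robo1 intron 3 region, at 1.2% against 31.3%, the promoter region of the complement factor I gene Cfi, at 1.1% against 48.3%, and exons of Ccdc125, Ttc22 and Il12rb1, with 1 further intron region without a symbol. Cfi was later at 6.7%, 23.3%, 19% and 6% from R1-8 to R15-17. Of the 17, 1 was also listed as rising afterwards, with 7.4% at GD20 and 76.2% at PND5, and it had 26.1% in spermatozoa.

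The genes beside cluster 4 regions were 422 with a symbol. St6galnac3, a sialyltransferase gene, had 3 regions, all in introns, and 19 genes had 2. The 3 regions of St6galnac3 followed different courses. Its intron 1 region was at 8%, 19%, 22.5%, 8.3% and 25.3% over the 5 stages, its intron 2 region at 5.2% at R13-14 against 22.5% at R9-12, and its intron 9 region at 4.8%, 25% and 12.5% from R13-14 to spermatozoa. Genes of second-messenger signalling stood among them. For the cluster, the authors' deposited table listed 61 enriched Gene Ontology terms. Leading them, second-messenger-mediated signaling held 30 of 404 genes, against 275 of 11100 background genes, with an adjusted p of 0.000303. The 31 regions of these 30 genes counted 18 rises and 1 fall at R9-12 and 1 rise and 21 falls at R13-14. Among all 472 annotated regions the counts were 193 and 27 at R9-12 and 24 and 263 at R13-14. Gucy1b1, a subunit of the nitric oxide receptor guanylate cyclase, was at 16.2%, 31.8%, 8.1% and 19.9% from R1-8 to R15-17 in intron 2. Of the cyclic nucleotide phosphodiesterases, Pde4d was at 11.7% at R13-14 against 31.9% at R9-12 in intron 1, and Pde11a at 8% against 19.2% in intron 3. Pde7b had 2 regions, at 21.2%, 36.6%, 19.1%, 13% and 24.8% over the 5 stages at its transcription end and at 8.5% at R13-14 against 19% at R9-12 in intron 2.

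Genes of a receptor tyrosine kinase term formed a second group. The authors' deposited table gave transmembrane receptor protein tyrosine kinase activity 10 of 373 genes, against 52 of 10394 background genes, with an adjusted p of 0.00821. The term counts Nrp1 and the co-receptor gene Nrp2 among the 10. Their 10 regions counted 5 rises and 2 falls at R9-12, against 193 rises and 27 falls of the 472 annotated regions. The 2 falls were in Insrr and Nrp2. Ntrk2, the receptor of brain-derived neurotrophic factor, was at 17.1%, 36.5% and 16.5% from R1-8 to R13-14 in intron 16. Epha2, an ephrin receptor, was at 18.5%, 36.8% and 17.3% in intron 1, and Ddr1, a collagen receptor, at 10.4%, 31.1% and 10.9% in exon 7. Insrr, a receptor related to the insulin receptor, ran the other way, with 27%, 15.4%, 33.2% and 15.7% from R1-8 to R15-17 in exon 3. In the same table, postsynaptic membrane held 28 of 414 genes, against 289 of 11375 background genes, with an adjusted p of 0.000592. Of its glutamate receptor genes, Grin2a was at 20.9% at R9-12 against 7.6% at R1-8 in intron 3, and Grin3b was at 17.1%, 27.8% and 15.8% from R1-8 to R13-14 in exon 6. Grin2c differed, with 36.2% at R13-14 against 17.9% at R9-12 in intron 8. The adjusted p-values are the authors', and the choice of background genes is not described in these sources.

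Of the 1924 genes named in the annotation sheets of clusters 3, 4, 7 and 8, 422 were named in that of cluster 4, and gene lists are counted against this base. Over all 472 annotated regions there were 193 rises and 27 falls at R9-12, 24 and 263 at R13-14, 61 and 55 at R15-17, and 81 and 20 in spermatozoa. Of 21 genes for DNA methylation and imprint protection 5 were in the 4 sheets and 3 had a cluster 4 region, with a median largest difference of 16.8 points, against 14.3 over the 472 annotated regions. Dnmt3a was at 23.9% at R15-17 against 7.1% at R13-14 in its promoter region (chr6:28234868-28235303, 6 CpGs), Mbd2, a methyl-CpG binding protein, at 9.1% at R13-14 against 19.8% at R9-12 in intron 5, and the third was Trim28. Of 46 genes for spermatid chromatin, acrosome and tail 6 were in the 4 sheets and Spag16 had a cluster 4 region. Of 27 germline and piRNA genes 5 were in the sheets, and the one in cluster 4 was Tdrd6, a component of the chromatoid body, with 5.9% at R13-14 against 26.8% at R9-12 in exon 1. Of 23 imprinted genes 1 was in the 4 sheets and 0 had a cluster 4 region. Among 78 synapse and axon guidance genes 30 were in the sheets and 7 had 8 cluster 4 regions, with a median largest difference of 18.2 points. They counted 3 rises and 1 fall at R9-12, 0 rises and 3 falls at R13-14, 1 rise and 2 falls at R15-17, and 4 rises and 0 falls in spermatozoa. Those 4 rises were the Robo1 promoter, Nrp2, Nrp1, at 24.4% in spermatozoa against 8.6% at R15-17, and Reln, which guides neuron layering, at 19.5% against 5%.

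Of 44 potassium and calcium channel genes 14 were in the 4 sheets and 4 had 5 cluster 4 regions, with 4 rises and 0 falls at R9-12 and 0 rises and 3 falls at R13-14. Kcnd2, a subunit of fast transient potassium channels, was at 30.7% at R9-12 against 16.7% at R1-8 in exon 1, and Cacna1a, a presynaptic calcium channel, was at 9.5%, 23.2%, 6.6% and 17.6% from R1-8 to R15-17. Of 54 chromatin enzyme genes 9 were in the 4 sheets, and Kdm1b, Kdm6b and Smarca2 had 1 cluster 4 region each, and the histone demethylase gene Kdm1b was at 22.9% at R9-12 against 6.9% at R1-8. Of 32 cadherins and protocadherins 14 were in the sheets and 3 had a cluster 4 region. Of 76 Wnt, BMP and TGF-beta signalling genes 12 were in the sheets, with Dkk3 and Wnt4 in cluster 4, and of 98 developmental transcription factors 16 were, with Foxa2 and Sox5 in cluster 4. The 8 Sertoli markers had 2 genes in the 4 sheets and 0 with a cluster 4 region. The 6 Leydig and peritubular markers had 0 genes in the sheets, so 0 could have a cluster 4 region. The 5 blood and endothelial markers had 2 genes in the sheets. Pecam1 had 1 cluster 4 region, at 10.8% at R15-17 against 22.5% at R13-14. The part of somatic cells in the levels was not tested.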

How the data were processed

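Genomic DNA of 36 germ cell samples was captured with a rat Methyl-Seq panel and bisulfite sequenced, and Bowtie2 and Bismark 0.19.0 are named in the submitters' processing notes. The genome build of the deposited coordinates and the region caller are not stated in the sources used here. Per the file headers, each list gives for every region the authors' mean methylation level of the later and the earlier stage as a fraction, their difference as a score on the same scale, a p-value and an adjusted p-value. Levels were multiplied by 100, and differences are later minus earlier stage. The deposited p-values were used as given.

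Members are all rows of the cluster 4 sheet. Levels were joined over the 7 lists by identical coordinates, and the same region and stage had 0 differing values between lists. Starts in the gene annotation sheet are 1 bp higher and were shifted back. Symbols came from RefSeq (GRCr8): 443 of 472 annotated regions matched. Shares carry 95% Wilson intervals for counting error only. Named regions are the 5 largest per step and direction with at least 3 CpGs, those of gene list members, those in 3 or more lists, genes with 3 or more regions, the 8 largest promoter differences and the 5 largest fetal or neonatal ones, and other named genes belong to the authors' terms or were chosen after values were seen. Some regions that this rule names are not reported here. The members and gene lists were chosen with earlier results of these data known. The counting steps were tested on simulated data. Python 3.11.15, pandas 2.3.3 and SciPy 1.17.1 were used.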

Additional observations from a re-analysis of the deposited data

How the results depend on the processing

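Requiring differences of at least 20 points lowered every count of members by step. At R9-12 against R1-8 there were then 95 rises and 8 falls, at R13-14 against R9-12 20 and 144, at R15-17 against R13-14 38 and 44, and in spermatozoa against R15-17 32 and 12. Requiring an adjusted p of at most 0.01 left 380 rises and 31 falls at the first step, 29 and 481 at the second, 54 and 63 at the third, and 183 and 23 at the fourth. These drops follow from the stricter thresholds, and the larger direction of each step stayed the larger, except at the third step, where rises and falls were near equal from the start. Means weighted by CpG number were 13.7% at R1-8, 13.5% at R13-14 and 15% at R15-17, against medians of 12.5%, 11.5% and 12.6%. These means lay above the medians but inside the quartiles of their stages. At R9-12 the weighted mean was 24.9% and in spermatozoa 21.7%, against medians of 24.8% and 22.2%. Means of density and length were 4.17 CpGs per 100 bp and 311 bp. Matching by any overlap or by a reciprocal overlap of 50% kept all counts within 1.5 times, and any overlap left the stage medians unchanged. Leaving out regions shorter than 50 bp kept all shares within their intervals. The stage medians were then 12.4% at R15-17 and 22.3% in spermatozoa, and unchanged at the other stages. Median density was then 3.27 CpGs per 100 bp and median length 272 bp. A minimum of 5 CpGs removed no region. No paired analysis was possible because the files hold stage means with no value per sample, and leaving out a replicate was not run for the same reason. Read depth behind a level is unknown here, and levels of regions not listed at a step are missing.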
